A study of Mus musculus with 24 samples.

Results

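Transcripts of 7 genes of the Notch pathway were followed in HBC-3 cells over a week on Matrigel. They were taken by symbol from the deposited value table, and they account for 7 of its 8315 gene symbols and 11 of its 24157 features. The genes are Dtx4 with 3 features, Adam17 with 3, and Hes6, Psen2, Mfng, Rfng and Numb with 1 each. HBC-3 is a mouse hepatoblast line, a bipotential liver progenitor, and Matrigel is a gel of basement membrane proteins on which it differentiates. The groups are day 0, which is undifferentiated HBC-3 cells replated on plastic without their STO fibroblast feeder layer, and days 1, 2, 3, 4, 5, 6 and 7 on Matrigel, with 3 arrays lettered A, B and C for each day. All 24 arrays are of 1 cell line without any genetic change named in the labels, and each carried amplified RNA of the sample in Cy5 beside a common reference of undifferentiated HBC-3 cells in Cy3, so that on day 0 both channels held undifferentiated cells.

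Notch is a receptor that is cut when a ligand on a neighbouring cell binds it. Sugar-adding enzymes such as the Fringe proteins tune which ligand it answers to, an ADAM protease removes its outer part, and gamma-secretase, with a presenilin at its centre, then frees the inner part to enter the nucleus and act with the DNA-binding protein RBPJ. Deltex proteins and Numb act on the receptor's trafficking and turnover, and some Hes proteins are transcription factors of the pathway's output. The level of Hes6 is not taken here as a measure of that output. In the developing liver the pathway is known for steering hepatoblasts toward bile duct cells, and loss of the ligand Jag1 or the receptor Notch2 leaves too few ducts.

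Values are log2 ratios of sample over reference after each array was centred on its median. A value of 0 means the same share of signal in the sample as in undifferentiated cells, and a value says nothing about how abundant 1 transcript is beside another. That the deposited ratios are log2 with the sample on top is likely from their range and from the dyes, but is not given in the sources used here. Fewer cells of a type and less RNA per cell cannot be told apart in such bulk samples. Whether the 3 arrays of a day stand for separate cultures is not in the labels, and a p-value here weighs a difference against the spread of those arrays, technical spread included.

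Promoter windows are shown for Hes6 and Psen2, which were above day 0 from day 2 on the A and B arrays. Dtx4 was so too, but had no window in the annotation table used. They are the 250 bases before each of the 2 annotated starts of each gene, from RefSeq on build GRCm38.p6, 5′ to 3′ on the strand of the gene. Capitals mark the core of the RBPJ site, TGGGAA or its reverse complement TTCCCA, and the E-box CANNTG, the motif of basic helix-loop-helix factors, with both strands searched.
Hes6 start site 1, chr1:91414039-91414288, minus strand: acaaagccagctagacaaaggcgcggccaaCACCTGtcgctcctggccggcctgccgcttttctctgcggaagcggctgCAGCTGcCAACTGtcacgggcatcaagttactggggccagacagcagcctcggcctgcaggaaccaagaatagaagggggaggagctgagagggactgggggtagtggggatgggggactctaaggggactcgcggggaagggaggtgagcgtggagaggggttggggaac
Hes6 start site 2, chr1:91413223-91413472, minus strand: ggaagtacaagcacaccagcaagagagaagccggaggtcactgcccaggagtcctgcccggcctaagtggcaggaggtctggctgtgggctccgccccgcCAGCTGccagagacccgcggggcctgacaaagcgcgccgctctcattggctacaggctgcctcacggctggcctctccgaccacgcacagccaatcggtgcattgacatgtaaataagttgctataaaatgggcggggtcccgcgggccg
Psen2 start site 1, chr1:180256301-180256550, minus strand: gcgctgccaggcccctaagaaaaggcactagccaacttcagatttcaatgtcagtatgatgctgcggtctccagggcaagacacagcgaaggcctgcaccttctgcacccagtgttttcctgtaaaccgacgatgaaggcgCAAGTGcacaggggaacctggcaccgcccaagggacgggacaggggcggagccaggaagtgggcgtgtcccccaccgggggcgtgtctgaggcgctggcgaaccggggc
Psen2 start site 2, chr1:180245951-180246200, minus strand: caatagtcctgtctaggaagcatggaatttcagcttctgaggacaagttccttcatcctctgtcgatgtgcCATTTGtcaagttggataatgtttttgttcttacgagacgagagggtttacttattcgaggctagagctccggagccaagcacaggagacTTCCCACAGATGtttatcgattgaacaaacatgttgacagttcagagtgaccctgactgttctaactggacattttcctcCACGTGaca
The RBPJ core occurred in 1 of these 4 windows, at the second start of Psen2, with its first base 89 bases before the start and an E-box directly after it, both motifs touching without overlap. Such a core is found in 21.6% of 32851 mouse windows of the same length, and an E-box in 66.2%. The 4 windows hold 3, 1, 1 and 3 E-boxes in the order shown. A match is a description of these letters and does not show a bound site, and the arrays carry no measure of binding. Of the other 5 genes, Numb, Rfng and Adam17 have windows in the same annotation table, none with the RBPJ core, while Dtx4 and Mfng have no window there.

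The arrays differed in ways that touch these genes. Between 12328 and 22149 features had a value on an array, and the SD of an array's ratios ran from 0.332 to 1.064. The C arrays of days 4 to 7, called late C arrays here, correlated with each other across features at 0.808 to 0.967. Their correlation with arrays A and B of the same day was 0.468 to 0.624. The A and B arrays of those days correlated at 0.519 to 0.779. The day 0 arrays correlated with each other at -0.343 to 0.755, and 8 of all 276 pairs of arrays lay under -0.3. Each result is therefore given with all arrays and, where it differs, without the late C set.

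Over the course, 2 of the 7 genes, Dtx4 and Hes6, changed (adjusted p under 0.05), beside 16.3% of all 10639 units tested, a unit being a gene or an unnamed feature. The test was an F-test of the day means over limma's moderated variance. All 7 genes had a value on at least 2 arrays of each day and were tested. Against day 0, 0 of 7 genes passed at day 1, where 10.9% of all units did and where 3 of the 7 had an unadjusted p under 0.05. At days 2, 3, 4, 5 and 6 the number was 2 of 7 each time, always Dtx4 and Hes6 and always higher. Of all units, 9.05%, 12.2%, 11.3%, 11.7% and 12.2% were called higher on those days, and 17.1%, 24.4%, 22.2%, 22.9% and 24.8% were called in either direction. At day 7 it was 3 of 7, all higher, beside 14.6% of units called higher and 27.6% called in either direction. The median difference at day 7 was 0.81 over the 7 genes and -0.01 over all units. Without the late C arrays the number called was 2, 3, 3, 3, 3, 2 and 4 of 7 at days 1 to 7, all higher, beside 21.3%, 31.1%, 37.0%, 26.1%, 26.3%, 28.1% and 31.5% of all units. Over the course it was then 3 of 7, beside 29.8%. In that fit Dtx4 had 1 array on day 5 and 1 on day 6, each assumed to vary like the arrays of other days. A single gene is a large share of 7, and nothing particular to the pathway is read from these counts.

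**Figure D1:**
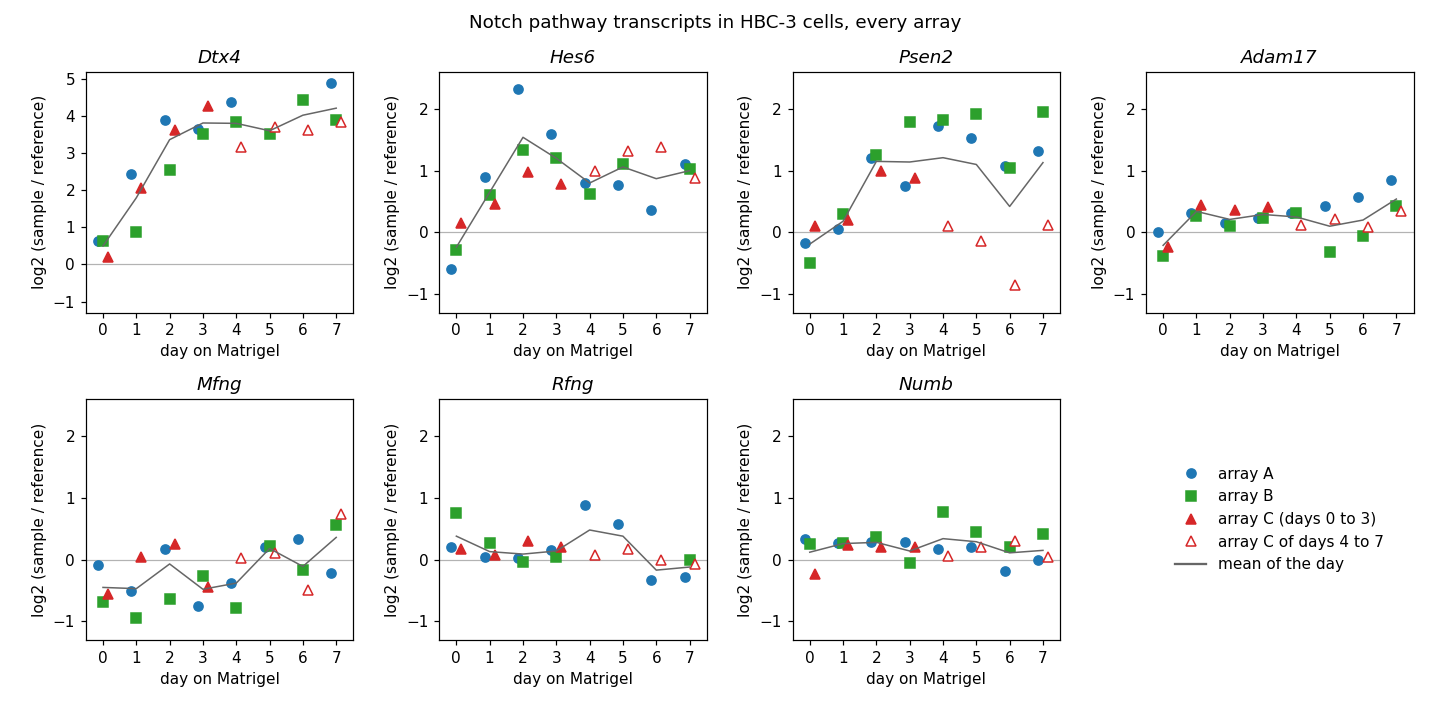
Log2 ratio of sample over reference (y axis) of each of the 7 Notch pathway genes by day on Matrigel (x axis), with 1 point per array and a line through the mean of each day. Dtx4 has a y axis of its own and reaches above 4 on days 3, 4, 6 and 7, but not on day 5. The open triangles of Psen2, the C arrays of days 4 to 7, lie between -0.86 and 0.12, while its A and B arrays of those days lie between 1.05 and 1.95.

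Dtx4, a member of the Deltex family of ubiquitin ligases that act on the Notch receptor, showed the largest rise of the 7. On day 0 it read 0.63, 0.64 and 0.21 on arrays A, B and C, and on day 1 it read 2.45, 0.87 and 2.07. On day 2 the values were 3.91, 2.56 and 3.62, and on day 3 they were 3.65, 3.53 and 4.28. Every array of days 1 to 7 with a value was above every array of day 0, and array B of day 1 was the lowest of them. How many of all units lie above day 0 in this way was not counted. From day 2 on the values stayed between 2.56 and 4.90, with a mean of 3.81 ± 0.54 (SD, n = 16 arrays).

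Dtx4 averaged 4.22 ± 0.59 on day 7 and 0.50 ± 0.25 on day 0 (SD, n = 3 each). The difference was 3.72 ± 0.43 (SE; adjusted p = 1.33e-05, limma), a 13.2-fold ratio. At day 2 it was already 2.87 ± 0.43 (adjusted p = 0.000213). The step to day 1 was 1.30 ± 0.43 and missed the threshold (adjusted p = 0.0596), but passed it without array B of day 1 (1.76, adjusted p = 0.0249), array B of day 2 (adjusted p = 0.0476) or array C of day 4 (adjusted p = 0.0496). It also passed without all 4 late C arrays (adjusted p = 0.0343). In the order of the daily means, days 7, 6, 3, 4, 5 and 2 followed each other by no more than 0.24, less than the pooled SD of 0.57 within days. The gaps above that SD were those of 1.57 between days 2 and 1 and of 1.30 between days 1 and 0.

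Most of the rise of Dtx4 fell within the first days. Days 5 to 7 averaged 3.99 ± 0.50 (SD, n = 7) and days 1 to 3 averaged 2.99 ± 1.09 (SD, n = 9), and Dtx4 was the only 1 of the 7 genes called in this comparison, where 3.51% of all units were called higher and 7.74% in either direction. Without the late C arrays 2 of 7 were called, Dtx4 and Psen2, beside 7.87%. The fitted difference was 0.96 ± 0.27 (SE; adjusted p = 0.0383). Days 2 and 3 alone, without day 1, averaged 3.59 ± 0.57 (SD, n = 6). The call was lost without any 1 of 11 arrays, namely day 0 B, day 1 B or C, day 2 B or C, day 3 A or B, day 5 B or C, day 6 B or day 7 A, with adjusted p-values from 0.0502 to 0.0882 and differences from 0.81 to 1.01. With all arrays scaled to the same spread its sign turned, to -0.38 (adjusted p = 0.547).

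The rise of Dtx4 rests on 1 feature with replicated values on day 0. Feature AI449438 had a value on 22 arrays and by itself gave 3.73 ± 0.44 for day 7 against day 0 (SE; adjusted p = 1.47e-05). Feature AA466039 had a value on 11 arrays, 1 of them of day 0, and feature AA002767 on 3, none of day 0, so these could not be tested. On the 11 arrays that held both, AI449438 was lower than AA466039 by a median of 0.27 on the log2 scale. Arrays A of days 5 and 6 had no value for any of the 3 features, so the fit of those days used arrays B and C. With all 3 day 0 arrays turned in sign Dtx4 passed at all 7 days, and likewise when each day was set against the reference channel instead of day 0.

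Hes6, a basic helix-loop-helix factor of the Hes family that counteracts Hes1, rose early and then stayed up. Its values on arrays A, B and C were -0.59, -0.28 and 0.16 on day 0, 0.89, 0.61 and 0.46 on day 1, and 2.33, 1.33 and 0.97 on day 2. On day 3 they were 1.60, 1.20 and 0.79. The arrays of days 1 to 7 ran from 0.36 to 2.33 and did not overlap those of day 0, whose highest was array C. The share of all units without such overlap was not counted.

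The mean of Hes6 was highest on day 2, at 1.54 ± 0.70, against -0.24 ± 0.38 on day 0 (SD, n = 3 each), with a difference of 1.78 ± 0.32 (SE; adjusted p = 0.000983). On day 7 it averaged 1.00 ± 0.12 and the difference was 1.24 ± 0.32 (SE; adjusted p = 0.00856), a 2.36-fold ratio. It passed at 6 of 7 days and missed at day 1 (0.89 ± 0.32, adjusted p = 0.0846), a call gained without array C of day 0 (1.08, adjusted p = 0.0469). Without the late C arrays it passed at day 1 (adjusted p = 0.0454) and missed at day 6, which then rests on array A alone, assumed to vary like the arrays of other days (0.60 ± 0.43 SE, adjusted p = 0.313). In the order of the daily means from day 2 down to day 1, each was at most 0.34 above the next, less than the pooled SD of 0.41. The next below day 2 was day 3 at 1.20, while day 1, the lowest of the days on Matrigel, was at 0.65. Day 2 was not tested against single other days on Matrigel. Days 5 to 7 and days 1 to 3 did not differ past the threshold (-0.15 ± 0.19 SE, adjusted p = 0.638).

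Hes6 depends on how day 0 is read. With all 3 day 0 arrays turned in sign it passed on 1 of 7 days only, and its day 7 difference was 0.76 (adjusted p = 0.134), whereas against the reference channel it passed on 6 of 7 days. Its change over the course (F = 5.18, adjusted p = 0.0185) was not called without array A of day 0 (F = 3.37, adjusted p = 0.119) or without array B of day 0 (F = 3.71, adjusted p = 0.103). Its single feature, AI326893, had no value on array B of day 6, so that day rests on arrays A and C, at 0.36 and 1.38.

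Psen2, presenilin 2, which can serve as the catalytic subunit of gamma-secretase, followed 2 courses at once. On day 0 its values were -0.17, -0.50 and 0.10 on arrays A, B and C, and on day 1 they were 0.05, 0.29 and 0.20. On day 2 they were 1.21, 1.25 and 0.99, and on day 3 they were 0.75, 1.79 and 0.88. Up to there the 3 letters moved together, at or near the level of undifferentiated cells until day 1 and above it from day 2.

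From day 4 the letters of Psen2 parted. Arrays A and B read 1.73 and 1.82 on day 4, 1.53 and 1.91 on day 5, 1.08 and 1.05 on day 6, and 1.32 and 1.95 on day 7. Array C read 0.10, -0.14, -0.86 and 0.12 on those days. Each late C array was thus below all 8 A and B arrays of days 4 to 7, at the level of day 0 or under it. How many of all units separate by letter in this way was not counted.

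With all arrays, Psen2 passed at 0 of 7 days against day 0 by limma, with an unadjusted p under 0.05 at 5 of them. At day 7 it averaged 1.13 ± 0.93, against -0.19 ± 0.30 on day 0 (SD, n = 3 each), and the difference was 1.32 ± 0.57 (SE; adjusted p = 0.0863). It passed at day 7 without array C of that day (1.82, adjusted p = 0.0371). Without the 4 late C arrays it passed at 6 of 7 days, all but day 1, with differences of 1.34 ± 0.25 at day 2 (adjusted p = 0.000918) and 1.82 ± 0.28 at day 7 (adjusted p = 0.00021). Its F over the course was then 14.5 (adjusted p = 0.000217), against 1.87 (adjusted p = 0.292) with all arrays. The values of day 2 themselves do not change between these fits. What changed was the SE, 0.25 against 0.57. The 4 late C arrays are not the only choice that matters, since with all 24 arrays Psen2 passed on 5 of 7 days when each day was set against the reference channel in place of day 0. Its F was then 6.05 (adjusted p = 0.00181) and its day 7 value 1.13 (adjusted p = 0.0334). It passed on 2 of 7 days with arrays scaled to the same spread, and on 2 of 7 with only the compared days fitted. In the fit without the late C arrays, 31.1% of all units passed at day 2 and 31.5% at day 7. With all arrays these shares were 17.1% and 27.6%, so calls in general were more frequent without the late C arrays.

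**Figure D2:**
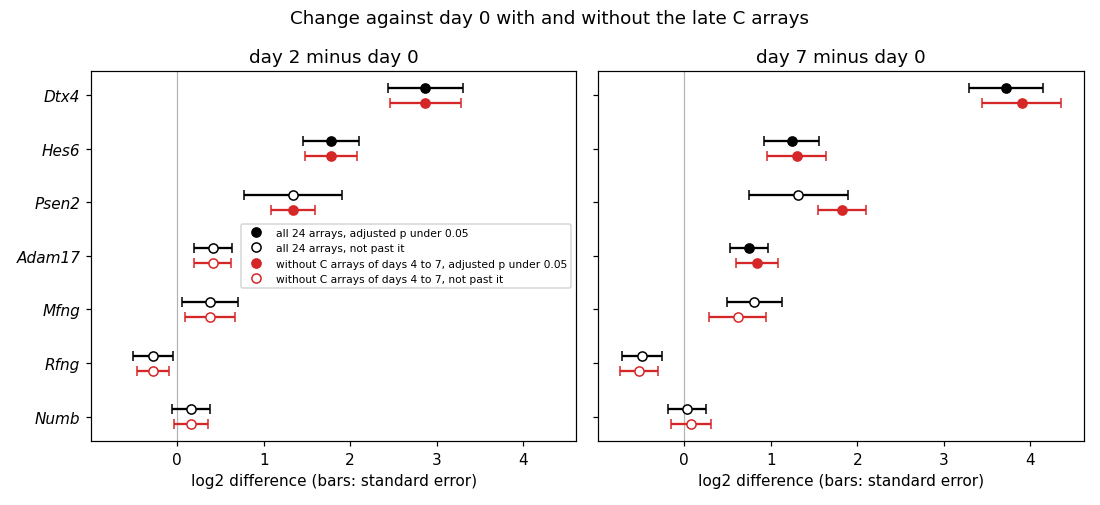
Fitted log2 difference from day 0 (x axis, bars are standard errors) of each of the 7 genes (rows) at day 2 and at day 7, with all 24 arrays in black and without the 4 late C arrays in red; filled points passed an adjusted p of 0.05. Psen2 is open in black and filled in red in both panels, with a difference at day 2 of 1.34 in both fits.

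The difference between the letters was itself tested over the 12 arrays of days 4 to 7, with day in the fit. It compares letters within days, since the labels give no condition that sets the C arrays apart. The late C set was itself chosen from earlier results of these data, so its p-values are not those of a grouping set beforehand. Psen2 averaged -0.20 ± 0.46 on the late C arrays (SD, n = 4) and 1.55 ± 0.36 on the A and B arrays (SD, n = 8), a difference of -1.74 ± 0.16 (SE; adjusted p = 3.32e-05) and a ratio of 0.299. It kept its sign and its call without any 1 of the 12 arrays (-1.82 to -1.68). The fit counts the 4 late C arrays as separate samples, whereas deviations from the day mean correlated at 0.153 to 0.905 in all 18 pairs of arrays of 1 letter within days 4 to 7, so that this p-value may be too small. Psen2 was the only 1 of the 7 genes called here, beside 19.7% of 12964 units called lower and 37.1% called in either direction. Units that part in this way were thus frequent on these arrays.

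Dtx4 did not part from the late C arrays in the same way. It averaged 3.59 ± 0.30 on 4 late C arrays and 4.17 ± 0.50 on 6 A and B arrays (SD), with a difference of -0.56 ± 0.26 (SE; adjusted p = 0.115). With all arrays scaled to the same spread, the difference was -1.14 (adjusted p = 0.00321). Hes6 averaged 1.14 ± 0.25 on 4 late C arrays and 0.83 ± 0.28 on 7 A and B arrays (SD), a difference of 0.33 ± 0.19 (SE; adjusted p = 0.204). For Adam17, Mfng, Rfng and Numb the differences ran from -0.18 to 0.13, none of them past the threshold.

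**Figure D3:**
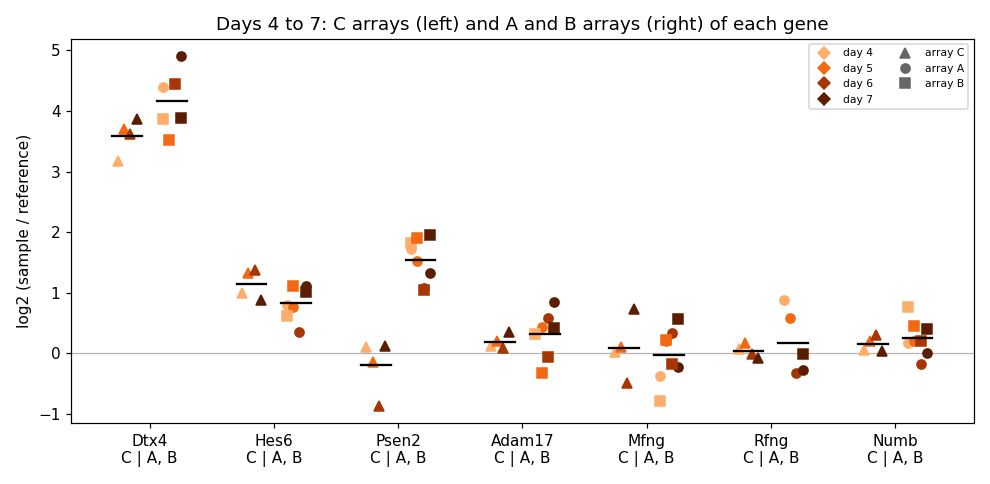
Log2 ratio of sample over reference (y axis) on the arrays of days 4 to 7 for each of the 7 genes, with the C arrays at the left and the A and B arrays at the right of each gene; bars are means. Only the 2 columns of Psen2 do not overlap, at -0.86 to 0.12 for C and 1.05 to 1.95 for A and B. Of all units, 37.1% were called between these letters, and the share without overlap was not counted.

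Adam17, a membrane protease that sheds ectodomains and can make the first cut in Notch, passed against day 0 at 1 of 7 days, day 7. It averaged 0.54 ± 0.27 on day 7 and -0.21 ± 0.20 on day 0 (SD, n = 3 each). Arrays A, B and C read 0.85, 0.42 and 0.35 on day 7, and 0.01, -0.38 and -0.24 on day 0, without overlap. The difference was 0.75 ± 0.22 (SE; adjusted p = 0.0146), a 1.68-fold ratio. The call was lost without array B of day 0 (0.66, adjusted p = 0.0739) or array A of day 7 (0.59, adjusted p = 0.0732), and with all 3 day 0 arrays turned in sign (0.34, adjusted p = 0.351). Turning the sign of array C alone among the day 0 arrays lost it too (0.59, adjusted p = 0.0534), as did fitting only days 7 and 0 (0.75, adjusted p = 0.0916). Days 1 to 6 lay between 0.10 and 0.34 on average, with 0 of those 6 days called, and every array of days 1 to 4 lay above every array of day 0. Such separation from day 0 was not counted over all units. Over all 7 days 4 had an unadjusted p under 0.05, and 4 were called with arrays scaled to the same spread. Day 7 was not tested against the other days on Matrigel, and in the order of the daily means the only gap above the pooled SD of 0.23 was that of 0.31 between days 5 and 0. With each day set against the reference channel, the change over the course was called (F = 3.99, adjusted p = 0.0143), against F = 1.96 (adjusted p = 0.27) with day 0 as the baseline.

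The 3 features of Adam17 did not give 1 picture. By itself, feature C76810 differed by 0.80 ± 0.51 (adjusted p = 0.257) between day 7 and day 0, and W61416 by 0.36 ± 0.28 (adjusted p = 0.357), so neither passed. AU021219, with values on 12 arrays, could not be tested alone. On late C arrays C76810 read -0.58, -0.27 and -0.36 at days 4, 5 and 7, against 0.86, 0.81, 1.31 and 1.06 on the A arrays of days 4 to 7 and -0.35 and 0.74 on the B arrays of days 6 and 7. W61416 read 0.44, 0.41, 0.09 and 0.74 on the late C arrays, against -0.32 to 0.32 on the A and B arrays of those days. The features thus differed from each other by up to 1.47 on 1 array, against a day 7 difference of the gene mean of 0.75, and the mean depends on which features had a value. With the average difference between features removed, a setting chosen after seeing the data, Adam17 passed on 4 of 7 days.

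**Figure D4:**
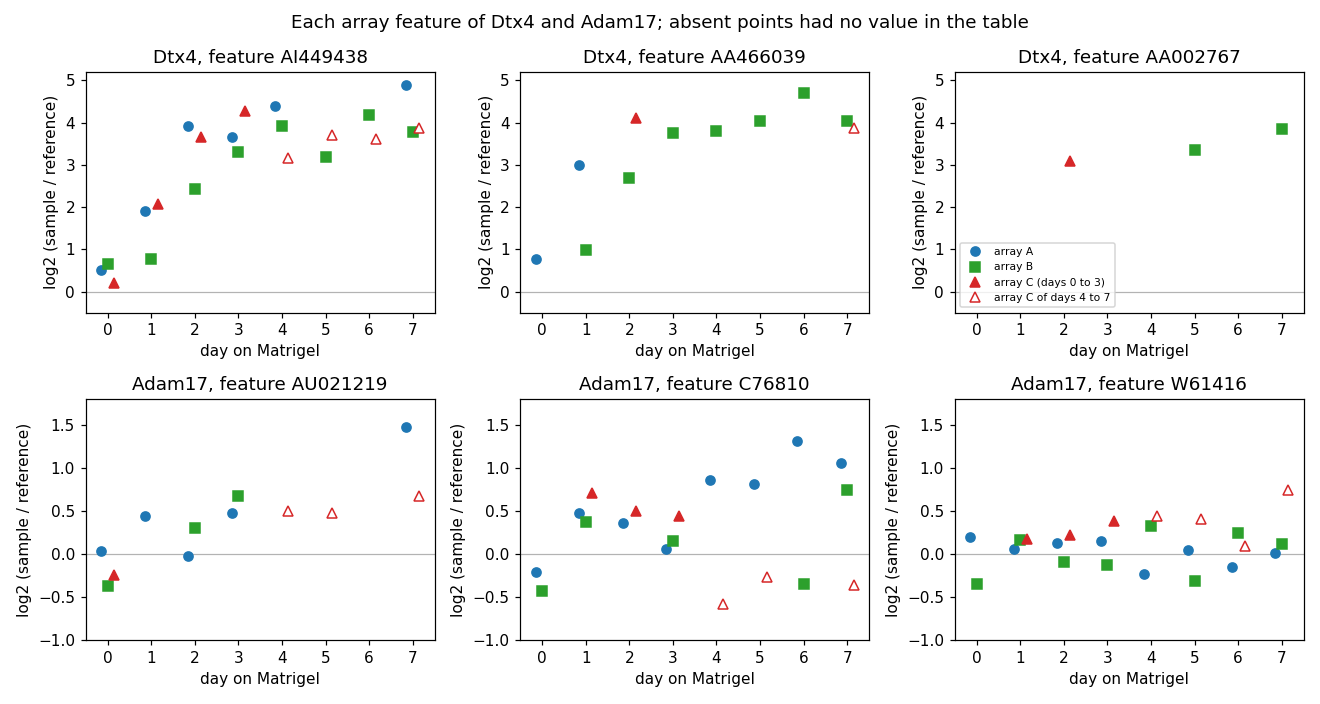
Log2 ratio of sample over reference (y axis) by day on Matrigel (x axis) for each of the 3 array features of Dtx4 (top) and of Adam17 (bottom), 1 point per array. AI449438 of Dtx4 lies under 1 on day 0 and above 3 from day 3, AA466039 has 1 point on day 0 and AA002767 none, while C76810 and W61416 of Adam17 place the open triangles, the C arrays of days 4 to 7, on opposite sides of the A arrays.

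Mfng and Rfng encode manic and radical fringe, which lengthen the sugar chains on Notch and so tune its response to ligands. Mfng averaged 0.36 ± 0.51 on day 7 and -0.45 ± 0.31 on day 0 (SD, n = 3 each), a difference of 0.81 ± 0.32 (SE; adjusted p = 0.0615). It passed without array A of day 7 (1.09, adjusted p = 0.0225), the lowest of that day at -0.22 beside 0.56 and 0.74. Its other daily means ran from -0.48 on day 3 to 0.18 on day 5 and no gap between neighbours in their order reached the pooled SD of 0.39. Rfng averaged -0.12 ± 0.14 on day 7 and 0.38 ± 0.33 on day 0 (SD, n = 3 each), a difference of -0.49 ± 0.23 (SE; adjusted p = 0.118). Its day 0 value of 0.76 on array B stood beside 0.20 and 0.17 on arrays A and C. Arrays B of days 4, 5 and 6 had no value for Rfng, and those days rest on arrays A and C. With arrays scaled to the same spread both fringe genes passed at day 7, Mfng at 1.04 (adjusted p = 0.0212) and Rfng at -0.69 (adjusted p = 0.043).

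Numb, an adaptor that sends the Notch receptor to endocytosis and so inhibits the pathway, showed no change past the threshold at any of 7 days, and at 0 of them was its unadjusted p under 0.05. It had a value on all 24 arrays, from -0.23 to 0.77 with a median of 0.22. On day 7 it averaged 0.15 ± 0.22, against 0.12 ± 0.31 on day 0 (SD, n = 3 each), a difference of 0.03 ± 0.22 (SE; adjusted p = 0.939). The range of its daily means, 0.11 to 0.34, was no wider than its pooled SD of 0.23.

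The rest of the pathway was covered only in part. Of 74 other genes listed for the pathway, 33 had a feature and 23 were tested. Of 8 ligands 1 had a feature and 0 were tested, and of 4 receptors 0 had a feature under their symbols, so the course of ligands and receptors was not analysed here. Of the 23 genes tested, 3 rose and 0 fell at day 7, beside the 14.6% of all units called higher and 27.6% called in either direction, so the count is near the share of all units or below it. These were Poglut1, which adds glucose to Notch (1.16 ± 0.34, adjusted p = 0.0167), Nedd4, a ubiquitin ligase (1.13 ± 0.30, adjusted p = 0.00856), and Hdac1, a histone deacetylase found in corepressor complexes (1.03 ± 0.34, adjusted p = 0.0283). The median over the 23 was -0.13, beside -0.01 over all units.

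Earlier in the course other pathway genes passed. At day 2 Cir1, an RBPJ-binding corepressor, rose by 1.28 ± 0.36 (adjusted p = 0.0179) and Aph1b, a gamma-secretase subunit, by 1.10 ± 0.29 (adjusted p = 0.015), while Tle4, a Groucho corepressor, differed by -0.92 ± 0.28 (adjusted p = 0.0303). Tle4 was the only 1 of the 23 called at day 1, at -1.05 ± 0.28 (adjusted p = 0.0207), beside 10.9% of all units. At day 3 Aph1b and Cir1 were again higher and Tle4 lower, and Myc, a growth regulator that Notch can induce, differed by -1.17 ± 0.38 (adjusted p = 0.0328). Of the 23, 2 were higher and 1 lower at day 2, beside 17.1% of all units called. At day 3, 2 were higher and 2 lower, beside 24.4% called, so these counts were near the shares of all units or below them. Between days 5 to 7 and days 1 to 3, limma called 0 of the 23, beside 7.74% of all units, with 9 at an unadjusted p under 0.05. Without the late C arrays 5 rose and 1 fell at day 7, beside 31.5% of all units called, with Cir1 and Epn2 added among the higher and Tle4 the lower.

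Some subunits of gamma-secretase other than Psen2 were also lower on the late C arrays, where 19.7% of all units were. On the late C arrays relative to the A and B arrays, Aph1a was lower by 1.52 on the log2 scale (difference -1.52 ± 0.22 SE, adjusted p = 0.000397) and Psenen was lower as well (-1.15 ± 0.32, adjusted p = 0.0147). Adam10, the other Notch-cutting ADAM protease, differed by -0.96 ± 0.26 (adjusted p = 0.0119). Ncstn stood at 0.75 ± 0.27 (adjusted p = 0.0541) and Aph1b at 0.09 ± 0.21 (adjusted p = 0.779), neither past the threshold. Of all 26 other pathway genes tested in this comparison, 9 were lower and 3 higher, beside 37.1% of all units called in either direction. The higher ones were Ep300, a histone acetyltransferase that joins the Notch nuclear complex (1.51 ± 0.28, adjusted p = 0.00168), Poglut1 (0.90 ± 0.20) and Tle4 (0.52 ± 0.18). The others that were lower were Cir1, Ctbp1, Spen, Hdac1, Dtx3l and Myc, at -0.91 to -0.54.

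Markers of other cells moved in the same samples. Of 16 fibroblast markers 9 were tested, and 6 of them rose by day 2 and 3 by day 7 (Dcn, Pdgfrb and Prrx1), beside the rise of Dtx4 and Hes6. Of all units, 9.05% were called higher at day 2 and 14.6% at day 7. Their mean per array ran from 0.33 to 0.77 on day 7, against -0.85 to 0.10 on day 0. The STO feeder layer had been removed by replating before the culture, per the labels. On the late C arrays the same mean was 0.33 to 1.13, against -0.06 to 1.04 on the A and B arrays, with overlapping ranges. Of the 9 markers, Col6a2 was lower there by the test of the letters (-1.11, adjusted p = 0.00978). Prrx1 was higher (0.63, adjusted p = 0.0195) and the others did not pass, beside 37.1% of all units called. Of 19 hepatoblast markers 4 were tested, and Afp, H19 and Igf2 rose at day 7 while Apob did not pass. Their mean was -0.18 to 1.40 on the late C arrays, against 0.89 to 3.55 on the A and B arrays, with overlapping ranges. By the test of the letters 3 of the 4 were lower on the late C arrays, as Psen2 was and as 19.7% of all units were. These were Afp at -1.56 (adjusted p = 0.0255), H19 at -1.78 (adjusted p = 0.0086) and Igf2 at -1.29 (adjusted p = 0.0333). Of 13 bile duct markers 2 were tested against day 0, Anxa4 and Bicc1. Anxa4 was called higher on days 2 to 7, at 1.27 on day 7 (adjusted p = 0.000358). Bicc1 passed on no day with all arrays (1.47 on day 7, adjusted p = 0.284). With the late C arrays left out, both were called higher on each of days 1 to 7. The mean of both markers was -0.13 to 0.48 on late C arrays, against 1.06 to 2.23 on A and B arrays. Bicc1 alone carried this separation (-3.14, adjusted p = 3.28e-05), while Anxa4 stood at 0.03 (adjusted p = 0.919), and Krt19 and Krt7, which could be tested in this comparison, at 0.78 (adjusted p = 0.187) and 0.24 (adjusted p = 0.801). Of 5 blood markers 2 were tested, and Tyrobp was higher from day 4 on, at 2.29 on day 7 (adjusted p = 0.00757), while Hba-a1 passed on day 1 (1.33, adjusted p = 0.0189). Of 5 endothelial markers Cdh5 alone was tested against day 0 and did not pass on any day, and it was higher on the late C arrays (1.00, adjusted p = 0.00739). The part of any of these cells in the values of Psen2, Dtx4 and Hes6 was not tested. Every ratio is taken against HBC-3 cells themselves, so the presence or absence of a marker in this hepatoblast line could not be read from these arrays.

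The genes most like each of the 7 over the arrays are given as a description, since all arrays share the reference. For Dtx4 they were Saraf, Kbtbd12 and Rsrp1, with Pearson correlations of 0.885, 0.879 and 0.874 over 22 arrays. For Psen2 they were Grina, Rnf166 and Arap1, at 0.916, 0.896 and 0.893 over 24 arrays. For Hes6 they were Zfand1, Cisd2 and Nrep, at 0.82, 0.818 and 0.818 over 22, 20 and 20 arrays. Mfng was most like Nt5dc3, at 0.924, then Tmem39b and Ttc3. Adam17 was most like Hps5 at 0.783, then Exd2 and Ufl1. Numb was most like Mzt2 at 0.753, then Mien1 and Supt4a, and Rfng was most like Ppp1r18 at 0.758, then Nfic and Vps72.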

How the data were processed

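Values came from the series table the authors deposited, taken as log2 ratios of Cy5 over Cy3. The sources used here do not give the scanner, background correction, normalization or the reason for missing values. Scale and centring before deposit are therefore unknown and the direction is likely only. Column medians lay between -0.0253 and 0.0295. GEO's platform annotation gave 13319 features 1 symbol and 589 several genes, and did not list 10249. For 13290 of the features with 1 symbol, the symbol was taken from RefSeq by Entrez identifier, whether or not it changed.

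Each array was centred on its median and the features of a gene were averaged. Units measured on 2 or more arrays of every day (10639 of 19153, 5660 of them genes) were fitted as 8 day means with limma 3.58.1 in R 4.3.3 (lmFit, eBayes), after a test on simulated data. Tests were 2-sided, with Benjamini-Hochberg adjustment over all units of a comparison at 0.05. The F over the course was computed from residual sums of squares with and without the day terms, over limma's moderated variance. Late C arrays were compared over the 12 arrays of days 4 to 7 with day in the fit. Letters were not taken as pairs, since deviations from day means correlated at or under 0.1 for 34 of 84 pairs of 1 letter, though within days 1 to 3 (9 pairs) and within days 4 to 7 (18 pairs) all correlated above it. Precision is limited by having 3 arrays a day.

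All 7 genes are named whatever their values, other pathway genes where they passed a comparison, and for each of the 7 the 3 genes of highest correlation over at least 20 arrays. The genes, lists and tests were chosen with earlier results of these data known. Alternatives were no centring, scaling, turned day 0 signs, the reference channel as baseline, medians over features, single features, other filters, the compared groups alone, a replicate block, a feature effect removed (chosen after seeing the data), the late C arrays left out, and each array left out.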

Additional observations from a re-analysis of the deposited data

Results flagged for a closer look

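Psen2 differed between arrays of the same days. On the 4 C arrays of days 4 to 7 it was at -0.86 to 0.12, against 1.05 to 1.95 on the 8 A and B arrays of those days, and the fitted difference was -1.74 (adjusted p = 3.32e-05). The late C arrays stood apart over the whole array (4807 of 12964 units called, 2551 of them lower), and the labels give no difference of treatment between the letters.

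Dtx4 differed between the late and the early days on Matrigel, by 0.96 for days 5 to 7 against days 1 to 3 (adjusted p = 0.0383). The adjusted p reached 0.0882 when arrays were left out 1 at a time, and the sign turned with arrays scaled to the same spread (-0.38, adjusted p = 0.547).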

How the results depend on the processing

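The rise of Dtx4 at day 7 kept its direction and its call under all 12 other settings (2.71 to 4.72) and without any 1 array (3.38 to 3.90), and the lower Psen2 of late C arrays did so under 5 other settings (-1.74 to -1.52). Signs turned for differences of which none was past the threshold on either side, except the Dtx4 late against early difference, and the cause was not tested. With arrays scaled to the same spread, the differences of days 5 to 7 against days 1 to 3 were -0.38 for Dtx4, -0.0564 for Psen2 and -0.0843 for Adam17, that of Mfng at day 1 was 0.16, and that of Numb at day 7 was -0.0008. With all 3 day 0 arrays turned in sign, Mfng at day 7 was -0.0847, against 0.81 with the signs as deposited. Rfng was then 0.51 at day 1 and 0.26 at day 7, against -0.24 and -0.49, and Psen2 at day 1 was -0.0089. The direction of both fringe genes at day 7 thus depended on how day 0 was read. With only array C of day 0 turned, Numb was -0.0185 at day 1 and -0.13 at day 7. Against the reference channel Rfng at day 1 was 0.13, and with the median over features Adam17 on late C arrays was 0.0568.

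Counts of all units called also moved. With the late C arrays left out they were 2271, 3312 and 3941 at days 1, 2 and 3 and 3166 over the course, against 1161, 1818, 2599 and 1738 with all arrays. Scaling gave 3259 at day 1, 3620 at day 2 and 2655 over the course, and the reference channel 2740 at day 2 and 5835 over the course. With all day 0 signs turned the counts were 515, 1109, 1366, 1499, 1342 and 1230 at days 1, 2, 3, 4, 5 and 7 and 1085 over the course. With only the compared groups fitted they were 2577, 3330, 1212, 1117, 1449 and 1607 at days 1, 2, 4, 5, 6 and 7. Units with a value on all 24 arrays gave 592, 1200 and 1651 at days 1, 2 and 3 and 2967 for late C arrays, a filter that leaves no value for Dtx4, Hes6 and Rfng. A replicate block by letter gave 1572 for days 5 to 7 against days 1 to 3, against 823 without it. Under the replicate block Psen2 passed on 5 of 7 days and Mfng on 1, against 0 and 0 without it. Arrays of 1 letter deviated together within days 1 to 3 (0.194 to 0.406) and within days 4 to 7 (0.153 to 0.905), while between day 0 and later days the range was -0.522 to 0.403.

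Leaving out 1 array at a time gave 330 to 1565 calls at day 1, 849 to 2189 at day 2, 1245 to 2850 at day 3, 1228 to 2688 at day 4, 1227 to 2734 at day 5, 1531 to 2866 at day 6 and 1616 to 3302 at day 7. It gave 403 to 1249 for days 5 to 7 against days 1 to 3, 2826 to 5654 for late C arrays and 753 to 2086 over the course. For single genes the ranges that crossed 0 were -0.32 to 0.0177 for Hes6, -0.0885 to 0.0022 for Numb, -0.0755 to 0.28 for Psen2 and -0.0586 to 0.0751 for Adam17 between late and early days. They were -0.0416 to 0.24 for Numb and -0.28 to 0.22 for Mfng at day 1, -0.15 to 0.13 for Numb at day 7, and -0.0355 to 0.36 for Mfng and -0.33 to 0.0053 for Rfng on late C arrays.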
